A study of Mus musculus with 30 samples.

Results

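Deubiquitinating enzymes remove ubiquitin from proteins, and their transcripts were compared in the gastrocnemius muscle of mice kept on a stable or on a repeatedly advanced light schedule. The genes were chosen by symbol: the ubiquitin-specific proteases (Usp followed by a number, without Usp18), the ovarian tumor proteases (Otub, Otud and Zranb1), the ubiquitin C-terminal hydrolases (Uchl and Bap1), the Josephin proteases (Atxn3 and Josd) and Cyld. The deposited tables held 75 such symbols, and 58 of them had a mean over 20 reads and a mean over 0.5 FPKM (a read count scaled to exon length and to the depth of the library), among 12030 genes that met the same limits. For each symbol the longest row was used. The other 17 were Otud6a, Otud7a, Uchl4, Usp17la to Usp17le, Usp26, Usp27x, Usp29, Usp35, Usp43, Usp44, Usp50, Usp51 and Usp9y. The nearest of them was Usp35, with a mean of 46.25 reads and 0.447 FPKM, and Usp17ld, Usp17le and Usp26 had no read in any library. By protein family the 58 genes were 41 ubiquitin-specific proteases (Cyld among them), 9 ovarian tumor proteases, 4 C-terminal hydrolases and 3 Josephin proteases. The last one, Usp6nl, matched the symbol pattern but encodes a protein with a TBC domain that is not known as a deubiquitinating enzyme.

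All mice were wild-type C57BL/6J males, housed alone with a running wheel and aged 14 weeks when the schedules began. The LD group (n = 14) stayed on a light-dark cycle that was never shifted, and the ADV group (n = 16) had the cycle advanced by 8 h every 4 days, a model of chronic jet lag, for 64 weeks. Poly(A) RNA was sequenced from 1 library per mouse. Muscles were taken over a span of daytime hours when both groups were under the same light-dark cycle, and the labels do not give the hour for each mouse.

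Ubiquitin is attached to proteins by the E1, E2 and E3 enzymes in turn, and its chains mark a protein for the proteasome, for sorting in membranes or for signaling. Deubiquitinating enzymes cut these chains, and most are cysteine proteases whose families are told apart by their catalytic fold. In muscle the ubiquitin-proteasome system breaks down myofibrillar protein during atrophy, and Usp2 is known as a gene whose transcript follows the circadian clock in many tissues.

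The largest differences between the groups were in Otud1 and Usp2, so the 250 bases upstream of the start of their tabulated transcripts are shown, read on the plus strand from GRCm39. Otud1, an ovarian tumor protease that prefers chains linked through lysine 63 of ubiquitin, has 1 exon and lay at chr2:19662563-19665394. Usp2 lay at chr9:43996236-44005774, and its row is a transcript that starts downstream of other Usp2 isoforms and shares later exons with them. This transcript has 12 exons and 3207 exon bases in a newer annotation (GENCODE vM39), and the row has 2034 bases. Capitals mark an E-box (CACGTG, the element bound by CLOCK and BMAL1 and by other helix-loop-helix factors) that overlaps the partial site TGACG of the cyclic AMP response element in Otud1, and that partial site alone in Usp2.
Otud1 (chr2:19662313-19662562): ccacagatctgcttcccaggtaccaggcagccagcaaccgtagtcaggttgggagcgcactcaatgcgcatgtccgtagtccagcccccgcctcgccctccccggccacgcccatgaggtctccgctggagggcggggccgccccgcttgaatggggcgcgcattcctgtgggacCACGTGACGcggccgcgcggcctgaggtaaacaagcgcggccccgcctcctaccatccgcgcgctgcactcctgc
Usp2 (chr9:43995986-43996235): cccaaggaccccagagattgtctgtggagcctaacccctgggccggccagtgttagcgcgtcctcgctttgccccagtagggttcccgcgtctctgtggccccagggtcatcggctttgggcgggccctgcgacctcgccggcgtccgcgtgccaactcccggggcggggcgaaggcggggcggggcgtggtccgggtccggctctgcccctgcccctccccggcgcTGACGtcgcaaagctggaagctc
On either strand, CACGTG stood in this window of 8 of the 58 genes and of 8.29% of 12028 genes tested, and TGACG in 24 of the 58 and in 26.5% of all. Neither sequence held the D-box TTATGTAA, the full element TGACGTCA or the paired heat shock units GAANNTTC and TTCNNGAA, which 0.499%, 2.67%, 4.89% and 5.88% of all windows held. A match is a string of letters and not a measured binding site. The tabulated start was also the start in GENCODE vM39 for 17 of the 58 genes and for 4517 of 12012 transcripts found there, so windows depend on the annotation.

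Between 18875468.5 and 28512674 reads per library were counted on exons. The share of each library on exons was 91.17 ± 0.12% (mean ± SD, n = 14) in LD and 91.53 ± 0.37% (n = 16) in ADV, with the highest values in ADV mice 34 (92.67%) and 25 (92.04%). Markers of skeletal muscle were abundant: the summed level of Acta1, Ckm, Myh4, Myh1, Myh2 and Tnnt3 ranged from 50563 to 68148 FPKM in LD and from 50011 to 65641 FPKM in ADV, and Alb, Apoa1, Gfap and Snap25, markers of liver and brain, did not reach the limits for testing. Of the 4 slow fiber markers, the 5 adipocyte markers and the 4 Schwann cell markers tested, all had a higher fitted level in ADV and 0 passed an FDR of 0.05 (edgeR). Of 5 endothelial markers 4 had a higher and 1 a lower fitted level in ADV, and Pecam1 alone passed (higher, log2 fold change 0.16, FDR = 0.0331). All 4 fibroblast markers had a lower fitted level in ADV, and Pdgfra alone passed (-0.24, FDR = 0.0198). Of 5 leukocyte markers 1 had a higher and 4 a lower fitted level, and 0 passed. In whole muscle, fewer cells of a type and less RNA per cell cannot be told apart.

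Mean levels over all mice ran from 68.5 FPKM for Usp47 to 0.881 FPKM for Usp11. Usp47, a relative of Usp7 with a role in DNA base excision repair, was highest at 69.2 ± 3.19 FPKM in LD (range 64.3 to 76.5) and 67.9 ± 4.15 in ADV (61.3 to 74.1). Usp13, an enzyme related to Usp5, followed with 64.2 ± 5.81 in LD and 63.9 ± 6.30 in ADV, and the ranges of these neighbours in the order overlapped in both groups. Together they made up 19.7% of the summed FPKM of the 58 genes. Usp2, Usp19, Usp4 and Usp25 were the other genes with a mean over 20 FPKM, 22 genes had a mean over 10, and 9 had a mean under 2, among them Atxn3 and Usp11. The sum over all 58 genes had a median of 675.9 FPKM in LD (range 633.0 to 709.2) and 673.1 in ADV (595.9 to 725.4). The sum of the ovarian tumor proteases reached 209.2 FPKM in ADV against at most 118.5 in LD, with medians of 106.1 and 101.3, and most of that upper end was Otud1.

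**Figure D1:**
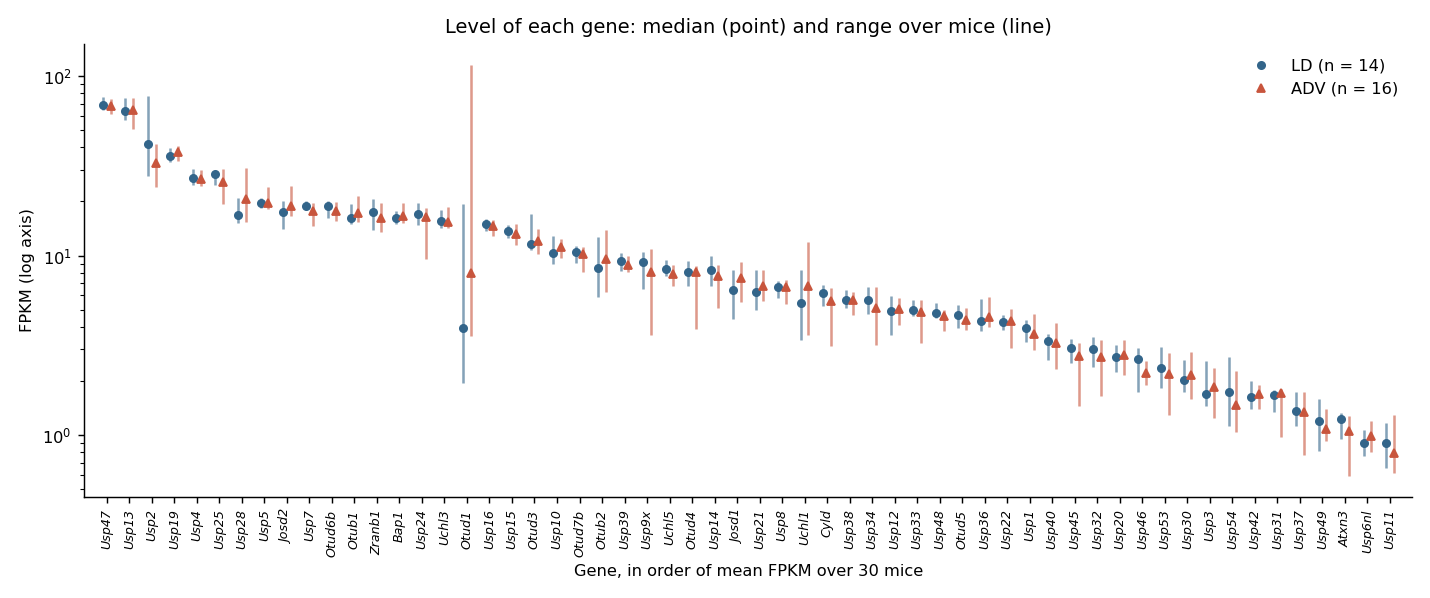
FPKM on a log axis for each of the 58 genes in order of mean level; points are medians and lines the range over the 14 LD mice (circles) and 16 ADV mice (triangles). Usp47 and Usp13 lie highest, and Otud1 has the longest line, from 3.58 to 115.8 FPKM in ADV.

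The comparison asked whether the chronic shift of the schedule changed these transcripts. At a fold change over 1.3 with its FDR below 0.05, 2 of the 58 genes passed (3.45%): Otud1 was higher and Usp2 lower in ADV. Over all genes tested 2.09% passed both limits (edgeR, 251 of 12030), 1.45% higher and 0.64% lower. By FDR alone 6 of the 58 passed, Otud1, Usp46, Usp28, Usp2, Usp7 and Usp48, which is 10.3% against 10.9% over all genes, so the share was close to the background. In 0 of the 58 did the ranges of the groups stand apart, as in 0.00831% of all genes tested (1 gene).

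The fitted log2 fold change was below 0 in 40 of the 58 genes (69%, against 49% of all genes tested), with a median of -0.06 against 0.003 over all. It stayed within 0.1 of 0 for 29 of the 58 and went beyond 0.3 in either direction for 5: Otud1, Usp2, Usp28, Uchl1 and Usp54. Of the ubiquitin-specific proteases 32 of 41 had a value below 0 and 5 passed the FDR, 4 lower and 1 higher. Counted over all 58 genes, 2 passed the FDR with a higher level (3.45%, against 5.74% of all genes tested) and 4 with a lower level (6.9%, against 5.12%). Of the ovarian tumor proteases 6 of 9 were below 0 and Otud1 alone passed. Of the 4 C-terminal hydrolases 3 and of the 3 Josephin proteases 2 had a value above 0, and 0 passed. Another 11 genes had an FDR between 0.05 and 0.1, 8 with a lower and 3 with a higher fitted level in ADV. The share of all genes tested in that band is not given here, so this count has no background beside it. An unadjusted p under 0.05 (edgeR) was found for 25 of the 58 (43.1%), against 30% of all genes tested. Spread between mice, as the coefficient of variation of FPKM, was larger in ADV than in LD for 43 of the 58 genes, and for 65% of all genes tested.

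**Figure D2:**
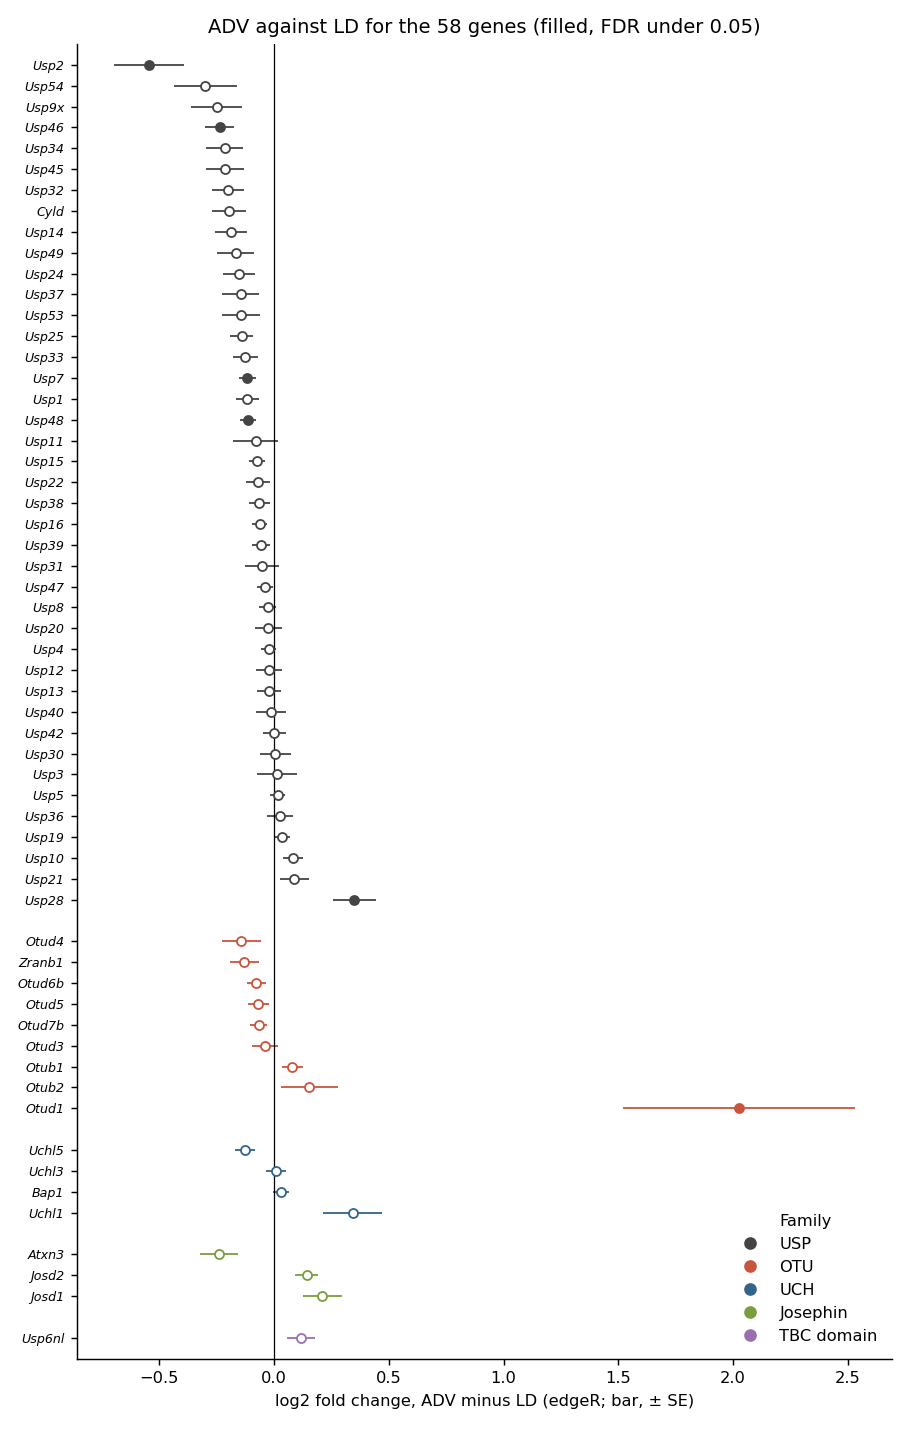
Log2 fold change of ADV against LD with its SE from edgeR for each of the 58 genes, grouped by family; filled points have an FDR under 0.05. Otud1 stands far to the right at 2.03, Usp2 at the left at -0.55, and most ubiquitin-specific proteases lie left of 0.

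Otud1 was the most changed of the 58 genes. Its level in LD ran from 1.96 FPKM over a median of 3.94 to 19.4 FPKM in mouse 26. In ADV it ran from 3.58 over a median of 8.01 to 115.8 FPKM in mouse 25. The groups overlapped: 14 of 16 ADV mice lay above the LD median, 5 above the highest LD mouse and 0 below the lowest. Those 5 were mice 24, 29, 21, 33 and 25, at 37.2, 42.2, 43.1, 61.6 and 115.8 FPKM, and the other 11 ADV mice lay between 3.58 and 15.8 FPKM, inside the LD range. The means were 5.84 ± 4.69 FPKM in LD (n = 14) and 23.8 ± 30.5 in ADV (n = 16), and the log2 fold change was 2.03 (SE 0.51, FDR = 0.0119, edgeR). Leaving out each mouse in turn kept it between 1.57, without ADV mouse 25, and 2.31, without LD mouse 26, with the FDR under 0.05 each time. The FDR was over 0.05 in 4 of 14 alternative fits, among them a rank test on FPKM (FDR = 0.0563), the fit without ADV mice 24 and 25, whose numbers had no LD counterpart (log2 fold change 1.46, FDR = 0.0528), and the fit with a score of clock genes as covariate (2.07, FDR = 0.109).

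The genes most like Otud1 in their order of mice were Hspa1a, Id1, Lyset, Hspa1b, Dnajb4, Atf3, Tle3, Clic4, Adcy4 and Itga5. Likeness was the smaller of the rank correlations over the 14 LD and the 16 ADV mice, taken as a description over all genes tested, and ran from 0.87 for Hspa1a to 0.73 for Itga5. Hspa1a and Hspa1b encode the inducible HSP70 chaperones, Dnajb4 is a co-chaperone of the HSP40 type, Atf3 is a stress-induced transcription factor and Id1 inhibits helix-loop-helix factors. Among the 58 genes Josd1 came nearest, with 0.69 in LD and 0.61 in ADV.

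Atf3 had its 5 highest ADV values, 44.8 to 123.6 FPKM, in the same mice 21, 24, 25, 29 and 33, and the highest LD value, 18.1 FPKM, in the LD mouse with the most Otud1. In the plots of Otud1 against Atf3 and Hspa1b the points of the groups overlapped only in part. Some ADV mice had more Atf3 than an LD mouse of similar Otud1, and some had less. With Otud1 at 7.54 and 7.73 FPKM, ADV mouse 35 had 20.4 and LD mouse 31 had 8.93 FPKM of Atf3. With Otud1 at 3.58 and 3.53 FPKM, ADV mouse 22 had 2.77 and LD mouse 29 had 5.20. Within LD, Otud1 and Hspa1b had r = 0.86 (permutation p = 0.00016, adjusted over 11 relations 0.00176) and rho = 0.78 (p = 0.00156, adjusted 0.00858, n = 14), and r = 0.79 without the 2 mice farthest from the median of Otud1. Within LD, Otud1 and Atf3 had r = 0.81 (permutation p = 0.00037, adjusted 0.00203) and rho = 0.78 (p = 0.00151, adjusted 0.00858), and r = 0.71 without the 2 farthest mice. For Fos in LD, r was 0.57 (permutation p = 0.0342, adjusted 0.094) and rho 0.59 (p = 0.0292, adjusted 0.0804), and r was 0.50 without those mice. Hspa1b and Atf3 are among the 10 genes ranked above by these same rank correlations in LD, so their p-values are not independent evidence of a relation, and the relation with Fos did not pass the adjustment.

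In ADV the mice fell into the 5 with high Otud1 and the 11 others, so that the rank correlations over all 16, used above to order genes by likeness, run across both sets and were not tested. Over the 11 others, Otud1 and Hspa1b had r = 0.88 (permutation p = 0.00085, adjusted 0.00312) and rho = 0.75 (p = 0.0111, adjusted 0.0406), falling to r = 0.58 without the 2 mice farthest from the median. For Atf3 in these 11 mice r was 0.54 (permutation p = 0.0873, adjusted 0.165) and rho 0.39 (p = 0.238, adjusted 0.437), and r was 0.44 without the 2 mice. For Fos r was 0.54 (permutation p = 0.09, adjusted 0.165) and rho 0.63 (p = 0.0448, adjusted 0.0986), and r was 0.74 without them. For Usp2 r was -0.47 (permutation p = 0.15, adjusted 0.235) and rho -0.33 (p = 0.327, adjusted 0.515), and r was -0.13 without them. These 11 mice were set apart by Otud1 itself, and Hspa1b and Atf3 were ranked above with these mice included. The p-values of Hspa1b and Atf3 in the 11 mice are thus not independent evidence of a relation.

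Most genes of the immediate early and heat shock lists, Atf3 and Hspa1b among them, also differed between the groups. A relation with Otud1 was not examined for every gene of these lists. Of 9 immediate early genes tested 7 were higher in ADV by FDR and 0 lower (5.74% and 5.12% of all genes tested), with Fos at a log2 fold change of 2.01 (FDR = 0.00687) and Atf3 at 2.43 (FDR = 0.00341). Of 6 heat shock genes 5 were higher, with Hspa1b at 2.67 (FDR = 0.00215), and Hsph1 had 0.04 (FDR = 0.736). Their part in the difference of Otud1 was not tested.

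**Figure D3:**
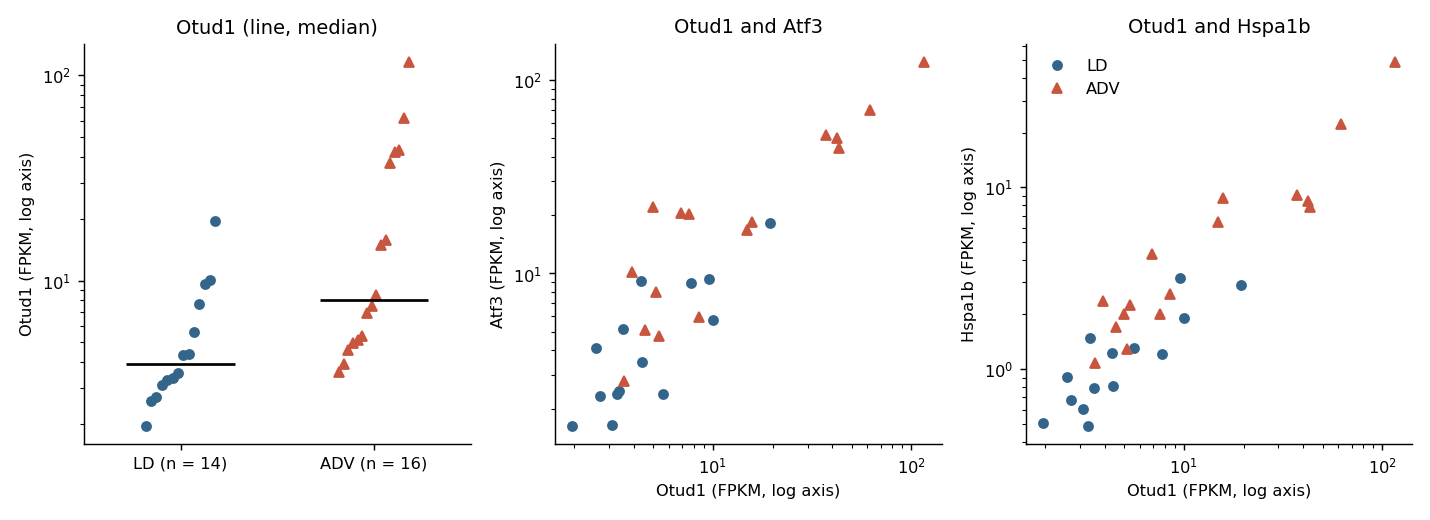
Left, Otud1 FPKM of each mouse on a log axis with the group median (line) for LD (n = 14, circles) and ADV (n = 16, triangles); middle and right, Otud1 against Atf3 and Hspa1b, each point a mouse, FPKM on log axes. The 5 ADV mice from 37.2 to 115.8 FPKM of Otud1 also have the 5 highest values of Atf3.

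Usp2, a protease known to act on PER1 and BMAL1 among other substrates, had the largest fall. Its level in LD ran from 27.7 FPKM over a median of 41.7 to 77.6 FPKM, and in ADV from 23.97 over 32.8 to 41.8 FPKM. The LD mice fell into 2 sets with none between 34.96 and 48.5 FPKM: 7 mice at 27.7 to 34.96, inside the wider ADV range, and 7 mice at 48.5 to 77.6, above every ADV mouse. Of the 16 ADV mice 1 lay above the LD median and 3 below the lowest LD mouse. The means were 47.9 ± 19.2 FPKM in LD and 33.3 ± 5.37 in ADV, and the log2 fold change was -0.55 (SE 0.15, FDR = 0.0217, edgeR). The FDR of Usp2 was over 0.05 in 5 of 14 alternative fits, both limma fits among them. The rank test on FPKM did not call Usp2 (FDR = 0.319), and with a score of 11 clock genes as a covariate the fitted value was 0.07 (FDR = 0.876). In that fit 0 of the 12030 genes passed the FDR, and 10 of the 58 had an unadjusted p under 0.05, 17.2% against 15.4% of all.

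That score was built from Dbp, Ciart, Nr1d1, Nr1d2, Tef, Hlf and Per3 against Bmal1, Clock, Npas2 and Nfil3. It averaged 1.02 ± 1.28 in LD and -0.89 ± 0.84 in ADV, so that it moved with the groups, and the hour of sampling and the schedule cannot be told apart in it. Over the 14 LD mice the rank correlation of Usp2 was 0.83 with Per1, 0.86 with Per2, 0.77 with Per3, 0.74 with Dbp and -0.77 with Bmal1, values that run across both sets of LD mice and are given as a description. Over the 16 ADV mice it was 0.63 with Per1, 0.03 with Per2, -0.20 with Per3, 0.20 with Dbp and -0.09 with Bmal1. Of the tested relations of Usp2 in ADV (n = 16) 0 of 4 passed. Dbp had r = 0.18 (permutation p = 0.497, adjusted 0.607) and rho = 0.20 (p = 0.45, adjusted 0.619), and Nr1d1 r = 0.04 (permutation p = 0.872, adjusted 0.959) and rho = -0.11 (p = 0.678, adjusted 0.823). Bmal1 had r = -0.20 (permutation p = 0.466, adjusted 0.607) and rho = -0.09 (p = 0.748, adjusted 0.823), and Per2 r = -0.01 (permutation p = 0.978) and rho = 0.03 (p = 0.917). Without the 2 mice farthest from the median of Usp2 these r values were 0.40, -0.07, -0.47 and 0.09.

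The genes most like Usp2 by the smaller of the rank correlations in LD and ADV were Mn1, Usp54, Klf13, Fbxo31, Vasn, Castor1, Angptl7, Rab27a, Adh1 and Noct, from 0.71 for Mn1 to 0.64 for Noct. Usp54, another of the 58 genes and a little studied member of its family, had 0.76 in LD and 0.66 in ADV. Its level ran from 1.12 over 1.73 to 2.71 FPKM in LD and from 1.03 over 1.48 to 2.27 in ADV. The groups overlapped widely, and its log2 fold change of -0.30 (SE 0.14) did not pass (FDR = 0.138, edgeR). Noct, a phosphatase known for rhythmic expression, and Per1, which came 12th in the same order, are both genes of the circadian output or core.

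**Figure D4:**
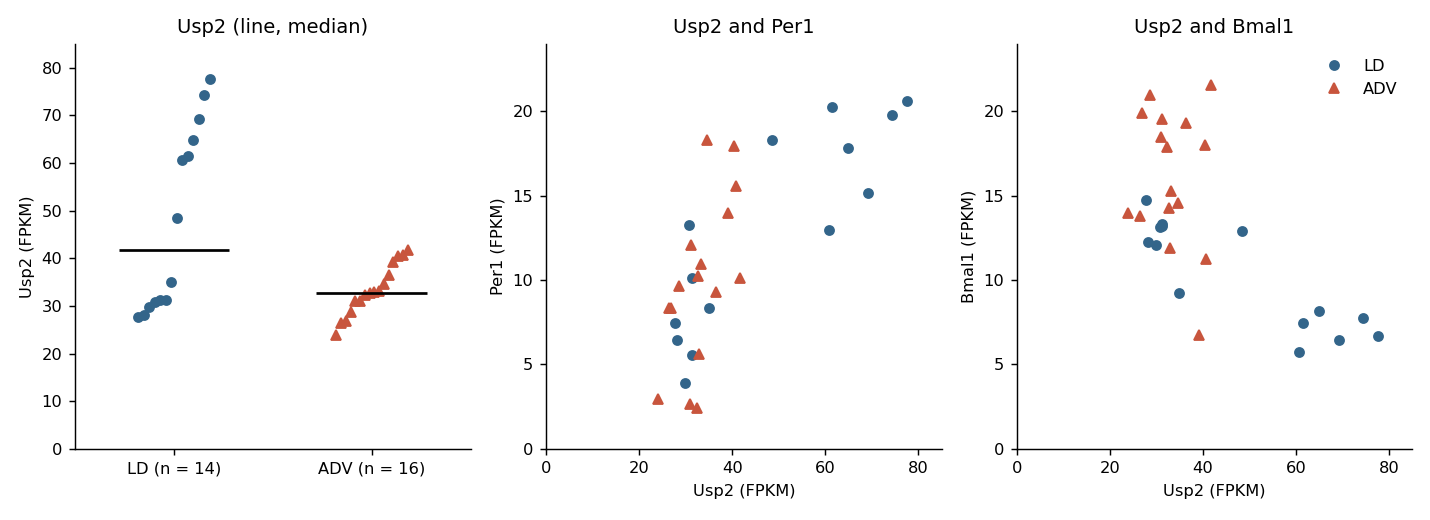
Left, Usp2 FPKM of each mouse with the group median (line) for LD (n = 14, circles) and ADV (n = 16, triangles); middle and right, Usp2 against Per1 and Bmal1 in FPKM, each point a mouse. In LD, 7 mice lie above 48 FPKM of Usp2 with no ADV mouse beside them.

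Usp28, which stabilizes MYC and other nuclear proteins, was the only other of the 58 genes with a higher level by FDR. It ran from 15.1 over a median of 16.7 to 21.04 FPKM in LD and from 15.3 over 20.6 to 30.6 FPKM in ADV. Of 16 ADV mice 14 lay above the LD median and 8 above the highest LD mouse, while the other ADV mice overlapped LD. The means were 17.3 ± 1.89 and 22.3 ± 5.09 FPKM, and the log2 fold change was 0.35 (SE 0.09, FDR = 0.0183, edgeR), a fold change of 1.27 under the limit of 1.3. With the trend with GC content removed, as described at the end, the log2 fold change was 0.38 (FDR = 0.0177) and Usp28 passed both limits. The FDR was over 0.05 in 3 of 14 alternative fits, among them the fit without ADV mice 24 and 25 (0.28, FDR = 0.0583) and the fit with the clock gene score (0.42, FDR = 0.155). Its close relative Usp25, also known for a muscle isoform, had 27.6 ± 1.83 FPKM in LD and 25.3 ± 2.66 in ADV (log2 fold change -0.14, SE 0.05, FDR = 0.0593).

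Usp46, which with its relative Usp12 is activated by the WD repeat protein Wdr48, was lower in ADV. It ran from 1.75 over 2.66 to 3.06 FPKM in LD and from 1.90 over 2.22 to 2.60 in ADV, and every ADV mouse lay below the LD median but none below the lowest LD mouse. The log2 fold change was -0.24 (SE 0.06, FDR = 0.0156, edgeR), after the trend with GC content was removed it was -0.16 (FDR = 0.0775), and with the clock gene score it was -0.37 (FDR = 0.0733). Usp12 had 4.95 ± 0.58 FPKM in LD and 4.92 ± 0.56 in ADV (log2 fold change -0.02, FDR = 0.805), Usp1, which shares the partner, had 3.97 ± 0.32 and 3.70 ± 0.43 (-0.12, FDR = 0.119), and Wdr48 itself had a log2 fold change of -0.04 (FDR = 0.596). In the annotation 6.28% of the exon bases of Usp46 lie opposite its antisense transcripts.

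Usp7, which deubiquitinates MDM2 and p53, ran from 17.8 over 18.8 to 20.1 FPKM in LD and from 14.7 over 17.8 to 19.6 in ADV. It was lower by 0.12 on the log2 scale (SE 0.04, FDR = 0.0342, edgeR), with 8 of 16 ADV mice below the lowest LD mouse. Usp48, a nuclear protease that acts on histone H2A, ran from 4.49 over 4.79 to 5.44 FPKM in LD and from 3.78 over 4.63 to 4.95 in ADV, and was also lower by 0.12 (SE 0.04, FDR = 0.0346), with 6 ADV mice below the LD range. Both were small differences that rested on narrow spreads. The coefficients of variation were 3.42% and 5.69% in LD and larger, 6.92% and 7.29%, in ADV. Without ADV mice 25 and 34 the FDR was 0.0653 for Usp7 and 0.0772 for Usp48, and leaving out single mice took it over 0.05 in 5 and in 4 of 30 fits. Of 14 other alternatives 6 gave an FDR over 0.05 for Usp7 and 9 for Usp48.

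The proteasome carries Usp14, Uchl5 and the metalloprotease Psmd14, which trim or remove chains from substrates. Usp14 had 8.28 ± 0.89 FPKM in LD and 7.33 ± 1.08 in ADV (log2 fold change -0.19, FDR = 0.0763, edgeR), and Uchl5 8.57 ± 0.55 and 7.93 ± 0.58 (-0.13, FDR = 0.0559). Psmd14 had 25.8 ± 1.67 and 25.7 ± 2.04 FPKM (-0.02, FDR = 0.748), and Adrm1, the receptor subunit that binds Uchl5, had a log2 fold change of 0.12 (FDR = 0.113). None passed. Of the exon bases of Usp14 49.8% lie opposite Thoc1, and whether the counting used the strand is not stated, so reads of the 2 genes may be shared. Of the 58 genes 31 had some exon bases opposite another gene, and 6 had over 40%: Usp14, Usp38, Usp30, Usp33, Otub1 and Uchl1. These shares are of the exon bases in GENCODE vM39 and not of the counted rows. For Otub1 and Uchl1 the counted rows were much shorter, so their shares do not describe the bases that were counted. Usp5, which takes apart free chains, had 19.6 ± 0.69 and 20.0 ± 1.49 FPKM (0.01, FDR = 0.799), and its relative Usp13 had a log2 fold change of -0.02 (SE 0.05, FDR = 0.817).

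Cyld cuts linear and lysine 63 chains and restrains NF-kB signaling. It ran from 5.23 over 6.16 to 6.89 FPKM in LD and from 3.15 over 5.57 to 6.60 in ADV, with a log2 fold change of -0.20 (SE 0.07, FDR = 0.0747, edgeR). Otulin, which cuts linear chains alone and lies outside the symbol rule, was higher in ADV, with 10.6 ± 1.99 FPKM in LD and 14.1 ± 2.53 in ADV (log2 fold change 0.39, SE 0.10, FDR = 0.0107). Tnfaip3, the inhibitor also called A20, was low in both groups, with 0.91 ± 0.33 and 0.92 ± 0.39 FPKM (FDR = 0.993). Among members tied to the same pathway, Otud7b had 10.4 ± 0.53 and 10.03 ± 0.80 FPKM (-0.07, FDR = 0.222). Otub1, which blocks the E2 enzyme Ube2n, had 16.5 ± 1.18 and 17.6 ± 1.84 (0.08, FDR = 0.256). In GENCODE vM39 42.3% of the 4385 exon bases of Otub1 lie opposite Macrod1, but its counted row had 1700 bases. Zranb1, the protease TRABID, had 17.4 ± 1.87 and 16.0 ± 1.68 FPKM (-0.13, FDR = 0.158), and Otud6b, whose mean over all 30 mice was the highest of its family, had 18.5 ± 1.22 and 17.7 ± 1.33 (-0.08, FDR = 0.191).

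Usp19, an enzyme of the endoplasmic reticulum known to rise in several forms of muscle wasting, ran from 33.2 over 35.8 to 39.9 FPKM in LD and from 33.4 over 37.8 to 40.9 in ADV. The groups overlapped almost fully, and the log2 fold change was 0.03 (SE 0.04, FDR = 0.548, edgeR). Usp10, a partner of the stress granule protein G3BP1, had 10.4 ± 0.99 and 11.1 ± 0.77 FPKM (0.08, FDR = 0.209). Usp15, a regulator of SMAD signaling, had 13.7 ± 0.74 and 13.1 ± 0.87 (-0.08, FDR = 0.144). Usp8, which acts on endosomes, had 6.60 ± 0.38 and 6.54 ± 0.48 (-0.03, FDR = 0.635), whereas Stambp, the endosomal metalloprotease outside the rule, was lower in ADV (-0.28, FDR = 0.029). Usp30, which sits on mitochondria and opposes mitophagy, had 2.10 ± 0.24 and 2.13 ± 0.30 FPKM (log2 fold change 0.00465, FDR = 0.972), with 47.8% of its exon bases opposite Alkbh2.

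In the nucleus, Usp22 is the deubiquitinase of the SAGA coactivator and Bap1 removes ubiquitin from histone H2A with an Asxl partner. Usp22 had 4.27 ± 0.30 FPKM in LD and 4.12 ± 0.53 in ADV (log2 fold change -0.07, FDR = 0.382, edgeR), and Bap1 16.3 ± 0.82 and 16.8 ± 1.16 (0.03, FDR = 0.619). Over 20 partner genes of deubiquitinating enzymes, subunits of SAGA, the Asxl proteins and the linear ubiquitin ligase among them, 1 was lower by FDR and 0 higher (5.12% and 5.74% of all genes tested). That gene was Atxn7l1, a relative of the SAGA subunit Atxn7 (-0.19, FDR = 0.0441).

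Uchl1, a hydrolase most abundant in neurons, had the largest fold change among the C-terminal hydrolases without passing. It ran from 3.40 over 5.46 to 8.29 FPKM in LD and from 3.61 over 6.77 to 11.9 in ADV, with 4 ADV mice above the LD range (log2 fold change 0.34, SE 0.13, FDR = 0.0761, edgeR). The summed level of the 4 tested Schwann cell markers ran from 12.6 to 29.1 FPKM in LD and from 14.2 to 52.0 in ADV, with Sox10 under the limits, and its part in Uchl1 was not tested. Of the 1716 exon bases of Uchl1 in GENCODE vM39 40.2% lie opposite antisense transcripts, Uchl1os among them, but its counted row had 1160 bases. Uchl3, the family's next abundant member after Bap1, had 15.6 ± 1.01 and 15.9 ± 1.21 FPKM (0.00777, FDR = 0.924).

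Among the Josephin proteases Atxn3, the protein with the polyglutamine tract of spinocerebellar ataxia, had 1.20 ± 0.12 FPKM in LD and 1.03 ± 0.20 in ADV (log2 fold change -0.24, SE 0.08, FDR = 0.0546, edgeR). Josd2 had 17.2 ± 1.68 and 19.2 ± 1.82 FPKM (0.14, SE 0.05, FDR = 0.0573), and Josd1 had 6.45 ± 1.25 and 7.53 ± 1.06 (0.21, SE 0.08, FDR = 0.0943). In all 3 the groups overlapped, with 14 of 16 ADV mice above the LD median for Josd2 and 13 for Josd1.

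The enzymes on the other side of the cycle gave few calls. Ubb, one of the genes that encode ubiquitin itself, had 212.3 ± 15.1 FPKM in LD and 233.1 ± 21.7 in ADV (log2 fold change 0.12, FDR = 0.114, edgeR). By FDR 5.12% of all genes tested were lower and 5.74% higher. Of the 2 E1 enzymes 0 passed. Of 30 E2 enzymes tested 3 were lower and 0 higher: Ube2d1 (-0.25, FDR = 0.0102), Ube2g1 (-0.19, FDR = 0.0401) and Ube2q2 (-0.18, FDR = 0.034). Of 12 deubiquitinating enzymes outside the rule 2 were lower, Stambp and Zup1 (-0.30, FDR = 0.0209), and 1 was higher, Otulin. Of 9 proteases of SUMO and NEDD8 1 was lower, Senp7 (-0.24, FDR = 0.0357), and 0 were higher. The median log2 fold changes were -0.15, -0.03, -0.10 and -0.02 for the E1 enzymes, E2 enzymes, other deubiquitinating enzymes and SUMO or NEDD8 proteases, and 0.01 for the partners.

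The transcripts of the 58 genes were long and poor in GC: their median length was 4560 bases and their median GC content 47.7%, against 2791 bases and 50.4% over all genes tested. Fold changes followed GC content, with a rank correlation of 0.65 over the 58 genes and 0.47 over all genes, which share the libraries and are not independent. The 29 members with the lower GC content had a median log2 fold change of -0.12 with 25 below 0, and the other 29 a median of -0.02 with 15 below 0. The trend of library deviations with GC content, as the log2 difference between 60% and 40% GC, was -0.13 ± 0.14 in LD and 0.12 ± 0.24 in ADV, with the highest values in ADV mice 34 and 25 (0.66 and 0.53).

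After this trend was removed from each library, the rank correlation with GC content was 0.39 within the 29 members of lower GC content. Within the other 29 it was 0.29, where the values before removal were 0.72 and 0.55. Over the 58 genes together it was 0.11. The median log2 fold change was then -0.05 against -0.01 over all genes, and 42 of the 58 were below 0 (72.4%, against 53.5% of all). By FDR 4 of the 58 then passed, Usp28, Otud1, Usp2 and Usp48, which is 6.9% against 5.02% of all genes tested, and 17 had an unadjusted p under 0.05 (29.3%, against 23% of all). Otud1 had 1.94 (FDR = 0.0223), Usp2 -0.59 (FDR = 0.0241) and Usp28 0.38 (FDR = 0.0177) in that fit, while Usp7 had -0.07 (FDR = 0.197). What the trend with GC content stems from was not tested.

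**Figure D5:**
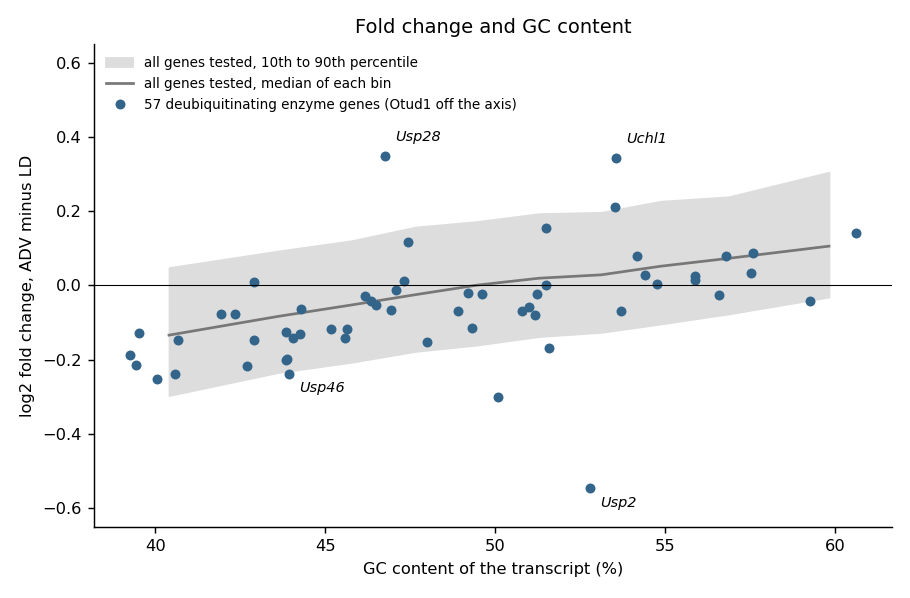
Log2 fold change of ADV against LD and GC content of the transcript in percent for 57 of the 58 genes (points; Otud1 at 2.03 is off the axis), over the median (line) and the 10th to 90th percentile (band) of all genes tested in 10 bins of GC content. The band runs upward from below 0 at 40% GC and holds 49 of the 58 genes; Uchl1, Usp28, Josd1 and Otud1 lie above it, and Usp2, Usp54, Usp49, Usp46 and Otud3 below.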

How the data were processed

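The members, gene lists, tests and alternatives were chosen with earlier results of these data known. Each library was assigned to LD or ADV from its label, and all columns were used. Per the study's methods, the authors used Trimmomatic for adaptor trimming and STAR for mapping to GRCm39, kept reads with a mapping quality of at least 10 and counted them on exons of 57186 UCSC canonical transcripts with HOMER. The submitters' processing notes name STAR 2.7.10a and HOMER 4.11. The deposited values are estimated counts, in which HOMER counts each mate as 0.5 read so that 14.8% were not whole, and FPKM made by the authors from the same counts. The library was stranded, and the strand option of the counting is not given in the sources used here, so reads of overlapping antisense genes may be shared. Antisense overlap, exon numbers and the GC content of transcripts were read from GENCODE vM39, which is newer than the annotation of the tables.

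Counts were rounded to whole numbers. One row per symbol (the longest with a mean over 20 reads and 0.5 FPKM) was tested with the edgeR 4.0.16 quasi-likelihood F test (TMM, 14 LD against 16 ADV libraries, Benjamini-Hochberg over 12030 genes, R 4.3.3). It gave the adjusted p-values called FDR, except those of the rank test (two-sided Wilcoxon in R) and of the DESeq2 and limma fits. Calls needed a fold change over 1.3 at an FDR below 0.05. In data simulated from these libraries with 200 changed genes, the test was checked before use. Depth was 18875468.5 to 28512674 reads per library. Correlations within groups had two-sided p-values from 100000 permutations. The GC content trend of each library (natural spline, 4 degrees of freedom, genes with a mean over 50 reads) was removed by an offset. Alternatives were DESeq2 1.42.0, limma 3.58.1 on log2(FPKM + 0.1) or log2(FPKM + 1), other size factors and filters, counts summed over a symbol's rows, a clock gene score as covariate, the label number as a block, and each library left out. The fit without ADV libraries 25 and 34 was added after the data were seen.

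Named genes were the members past the FDR, the 2 most abundant and the most changed of each family, members with known roles in muscle, the proteasome or NF-kB signaling, and the 10 genes most like Otud1 and Usp2. Other genes of the pathway lists that passed the FDR were named with their values. Usp54, Usp12, Usp1, Zranb1, Usp35, Wdr48, Psmd14, Tnfaip3, Stambp, Ubb and Adrm1 were named after their values were seen, for their tie to a named member or to ubiquitin, as were Usp33, Usp38, Usp49 and Otud3, for their annotation or place in a plot. The result of 1 gene of the ubiquitin pathway lists is not reported here. Muscle weights, grip strength and histology were not analysed here.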

Additional observations from a re-analysis of the deposited data

How the results depend on the processing

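Of the 58 genes, those past both limits numbered 0 with the rank test on FPKM, with the clock gene score as covariate and with the label number as a block, 1 with limma at either pseudocount and with the 28 libraries of shared label numbers without the block, 3 with the GC content trend removed, where Usp28 joined Otud1 and Usp2, and 2 or 3 when each library was left out. By FDR alone they numbered 11 with DESeq2 (13.9% of all genes tested passed), 2 with those 28 libraries (5.1%), 0 with the clock gene score (0%) and with the block (4.08%), and 4 to 10 when each library was left out, with 10 without ADV 21 and without LD 23, and 4 without ADV 25 and without LD 30. Over all genes tested, calls past both limits numbered 151 with the 28 libraries, 165 with the GC content trend removed, 0 with the clock gene score (1849 at an unadjusted p under 0.05), 124 with limma on log2(FPKM + 1), 136 with the block and 164 without ADV 25 and 34, and 188 to 300 when each library was left out. Otud1 had a log2 fold change of 1.46 (FDR = 0.0528) with the 28 libraries, 2.01 (FDR = 0.0563) with the rank test and 2.07 (FDR = 0.109) with the clock gene score, and 1.57 to 2.31 when each library was left out. The log2 fold change of Usp2, -0.55, turned to 0.0667 (FDR = 0.876) with the clock gene score. The cause of these changes was not tested. In the fits that left libraries out, their smaller number and the loss of those particular mice cannot be told apart. The other 10 alternatives kept the FDR of Otud1 under 0.05, among them DESeq2 and both limma fits. Outside the fits without single libraries, a gene of the 58 lost an FDR under 0.05 in 30 comparisons with an alternative, that of Usp2 with the clock gene score included, and gained it in 11. Genes past the FDR in neither fit changed sign in 74 of 2550 comparisons, among them 24 genes with main log2 fold changes within 0.17 of 0. The number of the 58 below 0 ran from 34 with the clock gene score to 43 without LD 34.

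With the label number as a block, Otud1 had a log2 fold change of 1.02 (FDR = 0.186, edgeR) and Usp2 -0.48 (FDR = 0.087). The numbers were not taken to pair the mice: the deviations of same-numbered mice correlated by over 0.1 in 6 of 14 pairs (range -0.26 to 0.43), and 3 mice correlated best with their own number.

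At this depth genes near 20 reads, and the 17 genes under the limits, were measured with a large counting error. A row counts 1 transcript of a gene, so isoforms that share exons, as those of Usp2, were not told apart.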

Other observations

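Some genes of the 58 varied between mice more than they differed between the schedules. Otub2, an ovarian tumor protease related to Otub1, ran from 5.87 over a median of 8.55 to 12.8 FPKM in LD and from 6.27 over 9.62 to 13.9 in ADV, with coefficients of variation of 22.8% and 23.3% and a log2 fold change of 0.15 (FDR = 0.41, edgeR). Usp9x, a large X-linked protease, ran from 6.54 over 9.18 to 10.5 FPKM in LD and from 3.60 over 8.09 to 10.8 in ADV, with coefficients of variation of 13.4% and 25.6%, a log2 fold change of -0.25 (FDR = 0.13) and a transcript GC content of 40.04%. Usp24 and Usp34, which also encode very large proteins, had lowest ADV values of 9.55 and 3.16 FPKM against 14.9 and 4.72 FPKM in LD, with log2 fold changes of -0.15 (FDR = 0.129) and -0.22 (FDR = 0.0707). The lowest values of Usp9x, Usp24 and Usp34 were all in ADV mouse 34, and mouse 25 was among the next 2, the mice with the steepest trend with GC content. Without mice 25 and 34 the log2 fold changes were -0.16 (FDR = 0.261) for Usp9x, -0.09 (FDR = 0.266) for Usp24 and -0.16 (FDR = 0.162) for Usp34. These genes were chosen after their values were seen.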
